A study of Homo sapiens with 9 samples.

Results

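The 3 libraries described here were made from HEK293T cells that had received only the solvent DMSO for 5 h, and they are all the DMSO libraries among the 9 samples of the series. The remaining samples were cells given the compounds HBC530 or MsOc3HBC, and their libraries were not used. The 3 DMSO libraries were labelled as replicates of the same condition, per the methods as biological replicates, and were grown in DMEM/F-12 medium with fetal bovine serum. Poly(A)-selected RNA was sequenced, and the deposited counts summed to 45433394, 59692075 and 62205366 in replicates 1, 2 and 3. The question asked here is which genes these cells transcribed when no compound was given and which they did not. No treatment was compared, so no test was run and every value is a description. The line was a commercial stock that, per the methods, had not been authenticated and was free of mycoplasma, so the values describe the cells of that stock.

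HEK293T is a human line that goes back to cultured cells of a fetal kidney. It carries adenovirus E1A and E1B, and it also carries the large T antigen of SV40. E1A and large T bind the retinoblastoma protein family, and large T drives the copying of plasmids with an SV40 origin. The line is therefore a common host for expressed receptors, channels and sensors, and what it transcribes on its own sets the background of such experiments. The viral sequences are not among the counted genes and were not measured. A line kept long in culture need not resemble the organ it came from, so the labelled origin was checked against markers of kidney and of other tissues.

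Levels are given in TPM, the usual per-length unit of transcript abundance, in which a gene's count is divided by its length and then scaled so that each library sums to the same fixed total. A value with ± is the mean and SD of the 3 libraries, and 3 values in a row are those of replicates 1, 2 and 3. A gene was called expressed when it reached 1 TPM in all 3 libraries, and silent in the strict sense when it had no count in any of them. Of 19629 protein-coding genes, 11718 (59.7%) were expressed and 2622 (13.4%) had no counts. Another 2291 had counts but stayed below 0.1 TPM in every library, and the remaining 2998 lay between these limits. These shares are the background against which each gene group below is read. The median coding gene had a mean of 4.29 TPM. Of the coding genes, 7719 reached 10 TPM, 1590 reached 100 TPM and 110 reached 1000 TPM in every library.

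A gene of the median length of 4180 bases at 1 TPM was covered by about 54.5 counts in replicate 1, the shallowest library. A count of 0 is therefore informative, and 3 counts were taken as the limit that a count of 0 allows in a library. For the coding genes without counts, that limit had a median of 0.137 TPM and a maximum of 1.97 TPM in the library where it was highest. These limits cover counting error only. A count of 0 can also come from the counting: reads that fell on bases shared by genes on opposite strands appear to have been dropped. To check this, very short genes were left out, and genes with shared bases were taken only where the overlapping gene had many counts. Of 236 such genes of any kind whose exonic bases all lay under genes on the opposite strand, 235 (99.6%) had no counts. Of 195 such genes whose exonic bases were all shared on the same strand, 101 (51.8%) had none. Among genes sharing no base, for which no neighbour with many counts was required, the share was 45.4%. Sharing on the same strand thus did not always remove the counts. Genes that shared at least 90% of their exonic bases, or of their 100-base words, with another gene are called uncountable here. They make up 710 of the coding genes, and 330 of the 2622 coding genes without counts.

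A small part of the genes held much of the TPM. The 10 most abundant genes of a library held 10.7 ± 1.38% of all TPM (SD, n = 3), and the 1000 most abundant held 64 ± 0.745%. Ribosomal protein genes, 85 in all, held 11.7 ± 0.465%. The mitochondrial genome held 9.96%, 12% and 13.4% of TPM in replicates 1, 2 and 3, the widest relative spread of these shares. Of the counts, which are not divided by length, it held 1.9%, 2.39% and 2.79%. The mitochondrial genes MT-ATP8 and MT-ATP6, overlapping subunits of ATP synthase, led with 22470 ± 2842 and 19250 ± 2801 TPM. MT-ATP8 is only 207 bases long and shares 22.2% of its bases with MT-ATP6. Among nuclear genes the highest were RPL8 (7364 ± 265 TPM), which encodes a protein of the large ribosomal subunit, and RPS2 (6038 ± 76.04 TPM), which encodes a protein of the small one. They were followed by the cytoplasmic actin ACTG1, which reached 5232 ± 386 TPM. The elongation factors EEF1A1 and EEF2 had 4793 ± 124 and 4565 ± 244 TPM, and the RNA-binding protein gene YBX1 had 4674 ± 63.1 TPM, or 2241 TPM with the longest transcript as length. By kind of gene, coding genes held 95.3% of TPM and long non-coding RNAs 1.18%, with 1473 of 14157 long non-coding genes (10.4%) expressed. Of these 1473, 612 share exonic bases with a gene that had more counts, as did 1410 of the 11718 expressed coding genes. The levels of such genes are less certain.

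Regulators of the early kidney were expressed somewhat more often than coding genes at large, and genes of the finished nephron far less often. Of 17 kidney progenitor genes 13 (76.5%) were expressed, against 59.7% of all coding genes, with a median of 6.72 TPM. In so small a group this is a difference of few genes. The mesenchymal and oncofetal groups described below stood at 65.2% and 66.7%. FOXC1, a forkhead factor of the intermediate mesoderm, stood at 222, 214 and 204 TPM in replicates 1, 2 and 3. SIX2, which keeps nephron progenitors undifferentiated, stood at 101, 106 and 106 TPM. Both were over 90 TPM in every library. CITED1, another marker of those progenitors, had 117 ± 5.63 TPM, although it shares 51.4% of its words with another gene and some bases with PIN4, which had more counts. FOXD1, a factor of the renal stroma, had 60.8, 68.4 and 67.9 TPM, and the zinc finger factor SALL1 had 22.3 ± 0.277 TPM. The tumour suppressor WT1, needed for kidney formation, had 10.2, 9.83 and 9.72 TPM.

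Some other regulators of the same organ were low or near 0. PAX2, which acts early in the kidney lineage, had 1.72, 1.75 and 2.05 TPM, while its close relative PAX8 had 0.0104, 0.00774 and 0.0145 TPM. The ureteric bud factor GATA3, by contrast, was expressed at 24.5, 26.9 and 28.7 TPM. PAX8 thus stayed below 0.1 TPM in all 3 libraries. In bulk RNA, a low level in all cells and a higher level in few cells cannot be told apart.

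Of 24 genes of the differentiated nephron only LRP2, PODXL and ATP6V1B1 (12.5%) were expressed, and the group median was 0.0166 TPM. LRP2 encodes the endocytic receptor megalin of the proximal tubule and had 7.69, 6.94 and 6.75 TPM. PODXL encodes a sialomucin of podocytes that many other cells also make, and had 4.48 ± 0.4598 TPM. The proton pump subunit ATP6V1B1 of intercalated cells had 1.79 ± 0.134 TPM, with 73.6% of its words shared with another gene. No counts were found for UMOD (uromodulin of the thick ascending limb), the water channel AQP2, CDH16, the sodium channel subunit SCNN1G, or the organic anion transporters SLC22A6 and SLC22A8. Of the kidney markers, those of progenitors were thus mostly present and those of the finished nephron mostly absent.

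An adrenal origin has been discussed for this line, and the adrenal genes were mostly low as well. None of 12 genes of the adrenal cortex was expressed, and CYP11B1, CYP11B2 and CYP21A2, the last steps of corticosteroid synthesis, had no counts. NR5A1, the factor that specifies steroid-producing cells, had 0.157, 0.201 and 0.235 TPM. Of 14 chromaffin and sympathetic genes 4 were expressed. They were the transcription factors GATA2 (30.1 ± 1.51 TPM), ISL1 (16.6 ± 0.496 TPM) and HAND2 (2.87 ± 0.0553 TPM), and PNMT (2.04 ± 0.249 TPM), the enzyme that turns noradrenaline into adrenaline. The enzymes before it in that route were at or near 0, with 0, 0.0176 and 0 TPM for TH and 0.111, 0.0414 and 0.0971 TPM for DBH. Chromogranin A, CHGA, had 1.53, 1.44 and 0.986 TPM and fell short of the limit in replicate 3.

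Genes known from neurons were expressed at a share close to the background, 13 of 25. The ubiquitin hydrolase UCHL1 had 197, 204 and 206 TPM. The neurofilament genes NEFM and NEFL had 95.4, 92.3 and 76.7 TPM and 70.8, 72.1 and 66.8 TPM. The related filament gene INA had 25.6 ± 1.39 TPM. Thus 3 neurofilament-type genes were each above 20 TPM. Their relatives NEFH (0.195 ± 0.0707 TPM) and PRPH (0.488 ± 0.148 TPM) were below the limit, and PRPH shares 56.2% of its bases with other genes. The neuronal tubulin TUBB3 had 1.504 ± 0.0593 TPM, a far lower level, although 35.8% of its bases are shared with a readthrough gene whose reads could be dropped. DCX, a microtubule protein of migrating neurons, had 0.00812 ± 0.00843 TPM, and the RNA-binding protein gene ELAVL4 had no counts.

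Of 22 epithelial genes 11 were expressed, and of 23 mesenchymal genes 15 were, shares of 50% and 65.2% on either side of the 59.7% of all coding genes. Members of both groups were among the abundant genes. Others, such as the epithelial CLDN1 (0.118 TPM) and the mesenchymal CDH11 (0.0157 TPM), were below the limit. The filament vimentin, VIM, had 161, 154 and 156 TPM. The simple epithelial keratins KRT8 and KRT18, which pair in 1 filament and share bases with each other, had 72.5, 74.6 and 72.8 TPM and 65.1, 68.2 and 63.8 TPM, and KRT10, a keratin of the epidermis, had 139, 120.0 and 122 TPM. All were therefore above 60 TPM in every library, but only 3 of 55 keratins were expressed. For the cadherins, the neural CDH2 had 43.4, 36.2 and 33.1 TPM and the epithelial CDH1 had 2.44, 2.11 and 2.398 TPM, so that the ranges did not overlap. SNAI2, a repressor of epithelial genes, had 118, 112 and 106 TPM, and the epithelial adhesion gene EPCAM had 1.19, 1.25 and 1.09 TPM.

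Within matrix genes the paired chains of type I collagen did not go together. COL1A1 had 8.38, 11.4 and 11.3 TPM, whereas COL1A2 had 0, 0.00513 and 0.00962 TPM. Of 44 collagen genes 20 were expressed, led by COL6A1 (99.02 ± 2.25 TPM), the cartilage collagen COL2A1 (59.9 ± 4.49 TPM) and the basement membrane collagen COL4A2 (45.3 ± 0.532 TPM). Although COL6A1 and COL6A3 encode chains of the same molecule, COL6A3 had only 0.102 ± 0.0364 TPM. SPARC, a matrix glycoprotein, had 60.7 ± 1.96 TPM. Only 4 of 24 claudins, the sealing proteins of tight junctions, were expressed.

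Genes of other lineages were expressed in smaller shares than all coding genes, with single members at higher levels. Of 10 endothelial genes only EGFL7 (36.4, 41.8 and 44.8 TPM) was expressed, and ERG and TIE1 had no counts. Of 16 blood genes 2 passed the limit. The globin gene HBA1, among them, is uncertain, since it shares 83.5% of its 100-base words with another gene. PTPRC, the common leukocyte antigen CD45, had 0.00839 ± 0.00926 TPM. In the liver, gut and pancreas group 7 of 14 genes had no counts, among them ALB (albumin) and INS (insulin). The intestinal factor CDX2 nevertheless had 38.1, 41.2 and 39.8 TPM, and the pancreatic factor PDX1 had 6.23 ± 0.694 TPM. Of 12 muscle and heart genes 2 were expressed. They included cardiac troponin I, TNNI3, at 11.7 ± 0.547 TPM, while MYOG had no counts. Of 10 glial genes 3 were expressed and 6 lay between the limits. The glial factor OLIG2 had 10.5 ± 0.733 TPM and the glutamate transporter SLC1A3 had 32.1 ± 2.503 TPM.

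**Figure D1:**
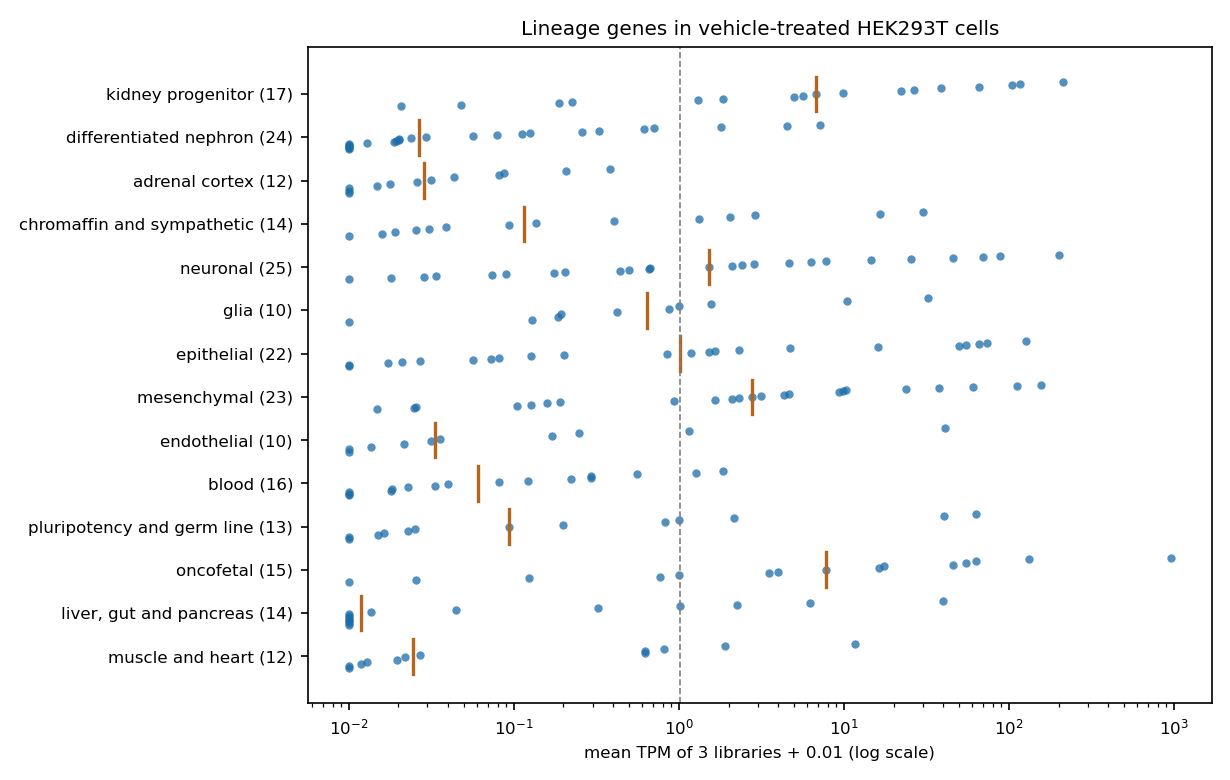
Mean TPM of the 3 DMSO libraries plus 0.01 on a log axis (x axis) for each gene (points) of 14 lineage groups (y axis, with the number of genes); the upright bar is the group median and the dashed line marks 1 TPM. Most kidney progenitor genes lie right of the line, and all but 3 of the 24 genes of the differentiated nephron lie left of it.

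Of the factors that define pluripotent cells, SOX2 alone was at a high level, with 42.7, 40.1 and 37.6 TPM. NANOG had 0.0151 ± 0.005695 TPM, and POU5F1, also called OCT4, had 0.816 ± 0.179 TPM with bases shared with a gene that had more counts. The de novo DNA methyltransferase DNMT3B, abundant in early embryonic cells, had 66.3, 63.04 and 59.7 TPM against 5.58 ± 0.457 TPM for DNMT3A. Of 15 oncofetal genes, which are active in the fetus and again in tumours, 10 were expressed. The chromatin protein gene HMGA1 had 863, 991 and 1021 TPM. The RNA-binding protein gene IGF2BP1 had 142, 130.3 and 124 TPM. LIN28B, which blocks the maturation of let-7 microRNAs, had 53.7, 43.8 and 40.6 TPM, while LIN28A, of like function, had 0.0156 ± 0.003096 TPM. Telomerase reverse transcriptase, TERT, was expressed at 3.51, 3.94 and 4.44 TPM, and AFP (alpha-fetoprotein) had no counts.

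The HOX genes, which give cells their position along the body axis and lie in 4 clusters, were almost all expressed, 34 of 39. HOXA (chr7:27092993-27200106, GRCh38) had 11 of 11 expressed, with summed TPM of 304.7, 292.8 and 298.1 in replicates 1, 2 and 3. HOXB (chr17:48528526-48729178) had 9 of 10, with sums of 324.2, 337.4 and 342.8 TPM. The sums of HOXB lay above those of HOXA in every library. HOXC (chr12:53938765-54056030) had 8 of 9, with sums of 198.7, 204.7 and 211.0 TPM, the lowest of the clusters. HOXD (chr2:176092891-176190907) had 6 of 9, with sums of 316.4, 300.4 and 292.5 TPM, a range that overlapped that of HOXA.

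The posterior end of the clusters was the more abundant. In paralogue groups 9 to 13, active toward the tail and limb ends, 14 of 16 genes were expressed with a median of 25.3 TPM. In groups 4 to 8 all 15 were, with a median of 12.5 TPM. In groups 1 to 3, the head end, 5 of 8 were, with a median of 4.8 TPM. HOXD13 was the highest HOX gene at 238, 224 and 217 TPM, followed by HOXB9 at 160.2, 164 and 169.6 TPM, and the ranges of these genes did not overlap. HOXA5 had 104, 93.01 and 99.1 TPM. HOXB1 was the single HOX gene without counts, and 3 counts would have been 0.0931 TPM. HOXD1 and HOXD3, which missed the limit, share 57.4% and 73% of their bases with antisense transcripts, so their low values are uncertain.

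**Figure D2:**
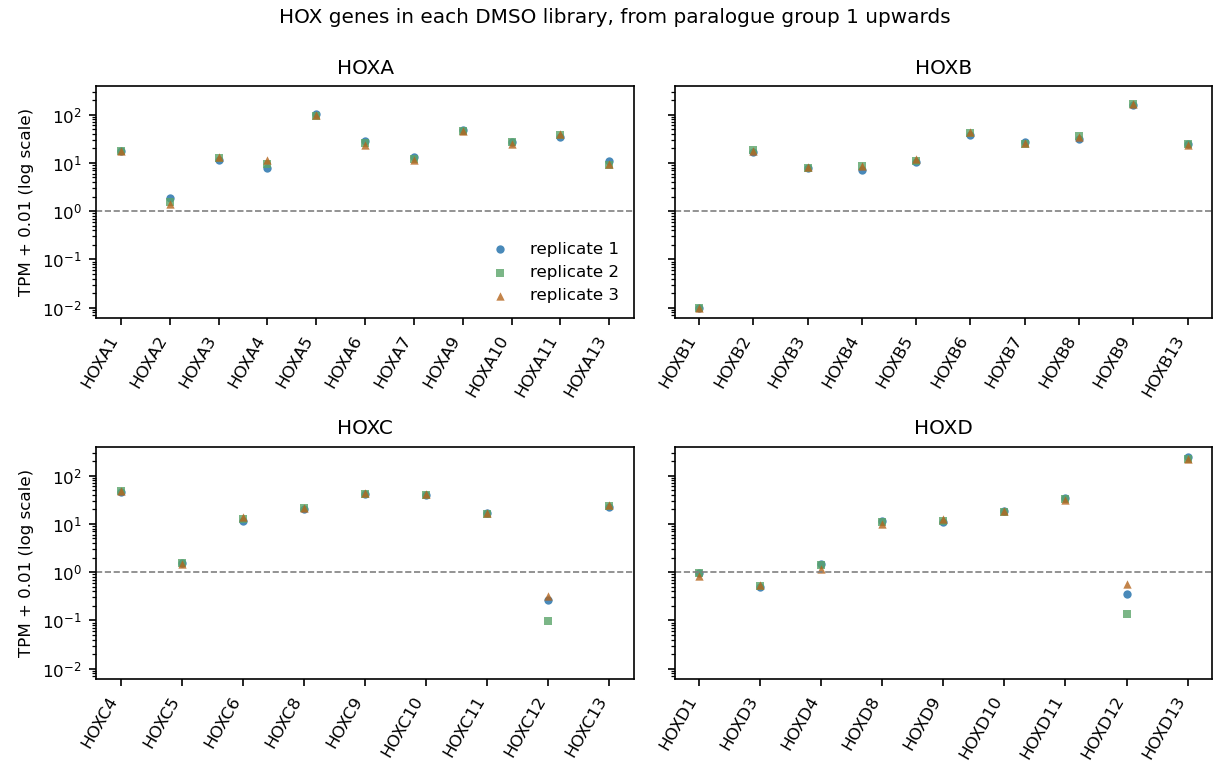
TPM plus 0.01 on a log axis (y axis) of each HOX gene (x axis, from paralogue group 1 upwards) in the 3 DMSO libraries (points), with a panel for each cluster and a dashed line at 1 TPM. HOXD13 and HOXB9 are the highest, and HOXB1 has no counts.

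Other developmental factor families were expressed in part. Of 19 SOX genes 11 were expressed, led by SOX12 (141 ± 9.61 TPM), the cartilage and gonad factor SOX9 (137 ± 4.55 TPM) and SOX4 (120.3 ± 9.796 TPM). Of 9 PAX genes 4 were, with PAX6, PAX3 and PAX9 at 7.87 ± 0.648, 7.77 ± 0.458 and 5.35 ± 0.456 TPM. Of 6 GATA factors 5 were, among them GATA6 (35.7 ± 1.54 TPM) and GATA4 (31.5 ± 2.28 TPM) of heart and endoderm. These levels lie above the median coding gene in each case. POU4F1, a factor of sensory neurons, was the highest of 15 POU genes at 58.7 ± 1.85 TPM, with 6 expressed in all, and TBX1 was the highest of 16 T-box genes at 57.4 ± 7.72 TPM, also with 6 expressed. Of 46 FOX genes 29 were expressed, of 12 LIM homeobox genes 8, of 6 sine oculis homeobox genes 4 and of 6 IRX genes 3. Of 508 numbered ZNF genes, mostly repressors with zinc fingers, 373 were expressed and 30 had no counts. ZNF703 stood first among them at 485 ± 39.2 TPM.

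Receptors for small transmitters were mostly at or near 0. Of 30 receptors for adrenaline, dopamine, serotonin and histamine 3 were expressed and 9 had no counts. The inhibitory adrenergic receptor ADRA2C had 30.7, 36.5 and 36.01 TPM. The dopamine receptor DRD4 had 1.82, 3.41 and 4.29 TPM, lowest in replicate 1. Of 21 acetylcholine receptor genes 3 were expressed, led by the nicotinic subunit CHRNA5 at 45.4, 39.5 and 37.1 TPM. The muscarinic receptor CHRM3 had 0.284, 0.188 and 0.234 TPM, below the limit in each library. CHRM1 and CHRM2 had no counts, where 3 counts would have been 0.0708 and 0.0277 TPM. Receptor channels for GABA and glutamate were expressed in 4 of 37 genes, a further gene having matched the group by name only.

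Purine, lipid and protease receptors were more often present. Of 19 purine receptors 6 were expressed. Among them, the adenosine receptor ADORA2B had 15.6, 15.5 and 16.1 TPM, and the ADP receptor P2RY1 had 10.7, 8.73 and 7.604 TPM. P2RY11 had 26.9 ± 0.989 TPM but shares bases with EIF3G, which had more counts. Of 25 receptors for lipid mediators 8 were expressed, led by the lysophosphatidic acid receptor LPAR3 at 48.4, 43.05 and 40.3 TPM, and the sphingosine 1-phosphate receptor S1PR2 had 7.61 ± 0.5002 TPM. Of 34 protease-activated, opioid and peptide receptors 10 were expressed. The thrombin receptor F2R had 22.5, 20.4 and 20.9 TPM and F2RL1, cleaved by trypsin, had 24.5, 22.1 and 20.99 TPM, so that both lay near 20 TPM. The chemokine receptor CXCR4 had 6.24, 6.75 and 5.94 TPM. AGTR2, GLP1R and OPRK1, receptors for angiotensin, glucagon-like peptide and dynorphin, had no counts. Of 28 adhesion receptors of the ADGR family 9 were expressed, with ADGRL1 at 40.2 ± 3.25 TPM.

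Receptors for developmental signals formed the fullest receptor groups. Of 13 receptors of the TGF-beta family 11 were expressed, with the activin receptor ACVR1B at 30.2 ± 2.23 TPM. Of 19 Wnt, Notch and Hedgehog receptors 16 were. SMO, the signal transducer of Hedgehog, had 56.9 ± 4.22 TPM, the Wnt co-receptor LRP5 had 33.5 ± 3.17 TPM, FZD7 had 31.8 ± 0.296 TPM and NOTCH2 had 30.3 ± 2.46 TPM. None of these genes was without counts. The ligands were sparser: 7 of 19 WNT genes were expressed, with WNT5A at 10.1 ± 0.7501 TPM, and FGF2 at 2.92 ± 0.244 TPM was the only expressed gene among 22 FGF genes.

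Of 55 receptor tyrosine kinases 32 were expressed, a share near that of all coding genes. The ephrin receptor EPHB4 had 55.4, 60.2 and 59.9 TPM and the fibroblast growth factor receptor FGFR3 had 49.3, 57.4 and 56.1 TPM. PTK7, a receptor without kinase activity, had 43.4 ± 1.29 TPM. EGFR, the receptor for epidermal growth factor, was expressed but low, with 1.92, 1.85 and 1.56 TPM. ALK and TIE1 had no counts. Integrins, which bind the matrix, were expressed in 13 of 26 genes after names that matched only by pattern were left out, with the common beta chain ITGB1 at 47.3 ± 6.93 TPM and ITGAV at 14.1 ± 2.68 TPM.

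Of 32 cytokine and death receptors 20 were expressed. IFNGR1, the binding chain for interferon gamma, had 74.9, 69.5 and 66.2 TPM, and IFNAR1, a chain of the type I interferon receptor, had 30.4 ± 3.69 TPM. TNFRSF1A, the main receptor for tumour necrosis factor, had 28.1 ± 1.76 TPM. The lymphotoxin receptor LTBR had no counts, and 3 counts would have been 0.0367 TPM. LTBR overlaps SCNN1A in 6.72% of its bases, which leaves most of the gene countable.

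Of 48 nuclear receptors 29 were expressed. The orphan receptors of the COUP group led, with NR2F6 at 123, 141 and 144 TPM, NR2F2 at 79.2 ± 1.51 TPM and NR2F1 at 72.6 ± 2.84 TPM. The glucocorticoid receptor NR3C1 had 9.39 ± 0.794 TPM. The estrogen receptor ESR1 was near 0, with 0.00647 ± 0.00415 TPM, and the progesterone receptor PGR had no counts. NR1I2 and NR1H4, which sense drugs and bile acids in the liver, had no counts. Of the lipid sensors, PPARD had 25 ± 1.68 TPM, PPARG had 16.3 ± 0.683 TPM and PPARA had 2.98 ± 0.265 TPM.

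Solute carriers, which move metabolites across membranes, were expressed in 211 of 379 genes. SLC25A5, the mitochondrial ADP/ATP carrier, had 2447 ± 67.8 TPM, the glutamine transporter SLC1A5 had 491 ± 38 TPM and the large neutral amino acid transporter SLC7A5 had 394 ± 3.83 TPM. Of 16 glucose transporter genes 9 were expressed. The widespread SLC2A1 (GLUT1) had 70.3, 69.7 and 68.04 TPM, and SLC2A2 (GLUT2), the transporter of liver and beta cells, had no counts. For lactate and pyruvate, SLC16A1 had 296, 253 and 244 TPM and 7 of 14 genes of its family were expressed. ATP1B3, a beta subunit of the sodium pump, had 247 ± 5.79 TPM.

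Of 28 drug uptake and efflux transporters 9 were expressed. The efflux pump ABCC1 had 33.6, 34.9 and 34.5 TPM, ABCB1 (P-glycoprotein) had 6.28, 6.82 and 4.95 TPM and ABCG2 had 2.67 ± 0.202 TPM. Uptake carriers of liver and kidney, SLC22A2, SLC22A3 and SLCO1B1, had no counts. Of 45 ABC genes 23 were expressed, and the highest, ABCF2 (218 ± 6.804 TPM) and ABCF1 (176 ± 4.51 TPM), encode proteins of translation that span no membrane.

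Potassium and voltage-gated channel genes were expressed in small shares, and other channel groups more often. Of 96 potassium channel genes matched by name, 95 after a name that matched by pattern only was left out, 20 were expressed, led by KCNK5 (21.5 ± 0.247 TPM) and KCNJ8 (20.9 ± 0.556 TPM). Of 27 genes of voltage-gated sodium and calcium channels 6 were expressed. The T-type calcium channel CACNA1H had 8.899, 10.8 and 11 TPM. Among 35 genes of the group of mechanosensitive, TRP, chloride and store-operated channels 17 were expressed. PACC1, the acid-activated chloride channel, had 51.6 ± 0.874 TPM and LRRC8A, of the volume-regulated anion channel, had 35.1 ± 0.696 TPM. ORAI1 and STIM1, the pore and the calcium sensor of store-operated entry, had 34.5 ± 2.28 and 30.6 ± 0.505 TPM, and the stretch-activated PIEZO1 had 27.6 ± 1.94 TPM. CFTR was near 0 with 0.00734 ± 0.00146 TPM, and TRPV5, TRPV6 and TRPC6 had no counts.

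Sensors of foreign nucleic acid were sparse, while the pathway below them was expressed at a share nearer that of all coding genes. Of 29 DNA and RNA sensors of innate immunity 8 (27.6%) were expressed, against 59.7% of all coding genes, and 9 had no counts. CGAS, the enzyme that makes cyclic dinucleotide on DNA, had 0.0739, 0.0827 and 0.0775 TPM, and its receptor STING1 had 3.43, 3.57 and 4.14 TPM. The adaptor MAVS had 30.1, 30.2 and 29.96 TPM. The RNA helicases upstream of MAVS were near or below the limit, with 1.005, 0.855 and 1.06 TPM for RIGI and 0.0251 ± 0.0223 TPM for IFIH1. RIGI shares 88.0% of its words with another annotated sequence, so its level may be too low. The double-stranded RNA kinase EIF2AK2 (PKR) had 18.2, 15.8 and 14.2 TPM and the RNA-editing enzyme ADAR had 129, 128 and 119 TPM. TLR2, TLR4, TLR8, OAS1, OAS2, AIM2 and ZBP1 had no counts. TLR9 and TREX1 also had none, but both are uncountable by overlap, so nothing follows for them.

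Of 36 genes of interferon and NF-kappaB signalling 25 (69.4%) were expressed, near the 59.7% of all coding genes. Of these 25, 5 overlap a gene with more counts. The expressed members included the NF-kappaB subunit RELA (78.1 ± 6.78 TPM) and the kinase JAK1 (58.1 ± 3.95 TPM). They also included the factor IRF3 (50.1 ± 3.35 TPM), which shares 19.3% of its bases with BCL2L12. The interferon genes IFNB1 and IFNL1 had no counts, and the interferon-induced MX1 had 0.00664 ± 0.0115 TPM. Of 22 inflammasome and lytic death genes 6 were expressed. The inflammatory caspases CASP1, CASP4 and CASP5 had no counts, and 3 counts of CASP1 would have been 0.0622 TPM. The kinase RIPK1 had 31.9, 31.6 and 29.2 TPM, whereas RIPK3, its partner in necroptosis, had no counts. The pore protein GSDMD had 0.0476 ± 0.00736 TPM and the adaptor PYCARD had 0.101 ± 0.0897 TPM with 59.7% of its bases under an antisense gene, while NINJ1, which ruptures the membrane of dying cells, had 23.3 ± 1.66 TPM.

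Sensors of internal stress were almost completely expressed, 35 of 38. The DNA break kinase PRKDC had 164, 148 and 136 TPM. KEAP1, which senses electrophiles, had 98.7, 100.5 and 101 TPM, and HSF1, the heat shock factor, had 88.3, 104 and 107 TPM. These genes were near or above 90 TPM in every library. Of the kinases that phosphorylate eIF2-alpha, EIF2AK1 (haem-regulated) had 122, 116 and 113 TPM, EIF2AK4 (amino acid starvation) had 16.1 ± 1.08 TPM and EIF2AK3 (unfolded proteins) had 6.403 ± 0.716 TPM. The other unfolded protein sensors ATF6 and ERN1 had 23.2 ± 1.71 and 5.09 ± 0.324 TPM, against 0.02899 ± 0.0175 TPM for ERN2, the gut form of ERN1. HIF1A, of the oxygen response, had 47.5 ± 7.48 TPM, against 0.0143 ± 0.0114 TPM for HIF3A.

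**Figure D3:**
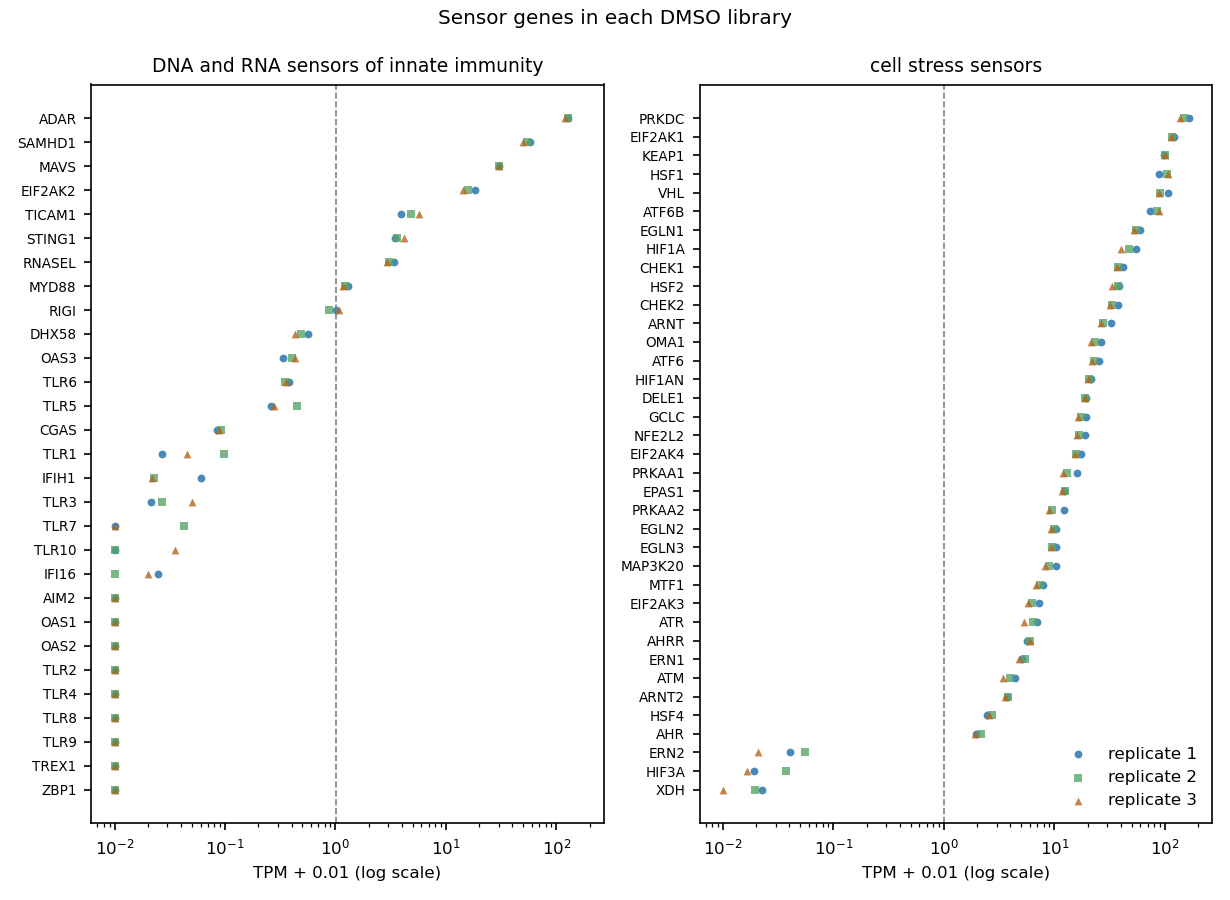
TPM plus 0.01 on a log axis (x axis) in each of the 3 DMSO libraries (points) for the DNA and RNA sensors of innate immunity and 37 of the 38 cell stress sensors (y axis, ordered by mean), with a dashed line at 1 TPM. MAVS lies near 30 TPM, CGAS below 0.1 TPM and PRKDC above 130 TPM.

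Apoptosis and cell cycle genes were nearly all present. Of 30 apoptosis genes 27 were expressed, with cytochrome c (CYCS) at 378 ± 40.4 TPM, the survivin gene BIRC5 at 328 ± 1.59 TPM, BAX at 152 ± 8.04 TPM and the initiator caspase CASP8 at 4.76 ± 0.253 TPM. BCL2A1, a blood cell member of the BCL2 family, had no counts. All 27 genes of the retinoblastoma and CDK inhibitor group were expressed. CDKN2A, which encodes the inhibitor p16 and also p14ARF, had 223, 225 and 216 TPM, and its target kinase CDK4 had 216, 237 and 240.5 TPM. With the longest transcript as length, CDKN2A had 674.5 TPM and CDK4 291 TPM, so the distance between them depends on the length used. The retinoblastoma gene RB1 had 14.7 ± 1.796 TPM, the E2F1 factor that its protein binds had 150.3 ± 20.4 TPM, and the CDK inhibitor gene CDKN1A had 29.4 ± 1.11 TPM.

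Of 20 genes of antigen presentation 12 were expressed. The class I gene HLA-C had 388, 394 and 389 TPM, and B2M, the light chain of class I molecules, had 62.02 ± 4.59 TPM. The class II chain HLA-DRB1 had 16.8 ± 1.17 TPM although its partner HLA-DRA had 0.206 ± 0.139 TPM. Reads of HLA genes can be assigned to the wrong member of the family, so these values are uncertain. PSMB8, a subunit of the immunoproteasome, had no counts, and PSMB9 had 0.759 ± 0.0761 TPM.

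Genes with near relatives of like function show which member these cells used. In 31 of 32 paralogue sets 1 member made up over 50% of the summed TPM. Many of the sets are pairs, where 1 member passes 50% whatever the values, so this count by itself says little. Of the lactate dehydrogenases, LDHB, the heart form, had 1743, 1585 and 1556 TPM and LDHA, the muscle form, had 921, 839 and 829.6 TPM. LDHB therefore made up 65.2% of the set and its values lay above those of LDHA in every library. With the longest transcript as length they were nearer, at 2336 and 1770 TPM. The actins ACTG1 and ACTB, by contrast, were closer, with 4809, 5322 and 5565 TPM and 4153, 4023 and 4137 TPM, although ACTG1 was the higher in every library. Among the nuclear lamins, the B-type LMNB2 and LMNB1 had 398, 387 and 357 TPM and 307, 275 and 264 TPM, while LMNA had 50.2, 54.1 and 52.1 TPM and 7.3% of the set. HK1 and HK2, the common hexokinases, had 97.8, 98.7 and 96.5 TPM and 100.4, 88.6 and 80.7 TPM with ranges that overlapped.

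Other sets were held almost entirely by 1 gene. ENO1, the widespread enolase, held 99.7% of its set, the brain creatine kinase CKB 98.1% and EEF1A1 96.2%. Ribosomal protein genes showed the same pattern in varied degree: RPL3 had 1919 ± 2.79 TPM and RPL3L, the heart and muscle form, 2.001 ± 0.134 TPM, while RPL26 had 528 ± 77.8 TPM and RPL26L1 227 ± 14.3 TPM. For RPL36A the order was the other way, with 244 ± 43.7 TPM against 1004 ± 112 TPM for RPL36AL. The initiation factors EIF4A2 and EIF4A1 had 70.1 ± 3.94 and 26.8 ± 0.445 TPM, but EIF4A1 shares all its words with a readthrough gene and its level is uncertain. With the longest transcript as length they had 59.8 and 59.98 TPM.

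In 4 pairs the widespread member was abundant and the tissue-specific member had no counts, and the sequences before their starts are shown so that the pairs can be compared. PGK1 and PGK2 encode phosphoglycerate kinase (PGK2 is made in sperm cells), RPL10 and RPL10L a ribosomal protein (RPL10L in testis), COX6A1 and COX6A2 a cytochrome oxidase subunit (COX6A2 in heart and muscle), and PDHA1 and PDHA2 a pyruvate dehydrogenase subunit (PDHA2 in testis). PGK2, RPL10L and PDHA2 are copies without introns. Each line gives, 5′ to 3′ on the strand of the gene, the 150 bases before the RefSeq start on GRCh38.p14, with every CG dinucleotide (CpG), the site of DNA methylation, in capitals.
PGK1: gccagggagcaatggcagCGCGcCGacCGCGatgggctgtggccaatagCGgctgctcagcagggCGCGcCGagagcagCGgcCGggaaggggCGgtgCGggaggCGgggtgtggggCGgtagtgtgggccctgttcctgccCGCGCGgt
PGK2: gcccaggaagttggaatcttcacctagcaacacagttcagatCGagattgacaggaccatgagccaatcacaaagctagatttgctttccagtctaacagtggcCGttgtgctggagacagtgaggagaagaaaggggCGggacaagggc
RPL10: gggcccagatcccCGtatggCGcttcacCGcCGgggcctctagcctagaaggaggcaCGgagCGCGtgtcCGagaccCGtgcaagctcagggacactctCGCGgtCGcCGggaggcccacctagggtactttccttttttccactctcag
RPL10L: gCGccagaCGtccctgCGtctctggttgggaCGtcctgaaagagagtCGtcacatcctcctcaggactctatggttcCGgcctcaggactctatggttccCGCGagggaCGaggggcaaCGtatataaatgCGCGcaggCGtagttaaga
COX6A1: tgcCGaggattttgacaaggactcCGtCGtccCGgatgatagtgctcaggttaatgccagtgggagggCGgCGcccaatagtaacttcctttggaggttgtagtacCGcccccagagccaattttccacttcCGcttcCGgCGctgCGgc
COX6A2: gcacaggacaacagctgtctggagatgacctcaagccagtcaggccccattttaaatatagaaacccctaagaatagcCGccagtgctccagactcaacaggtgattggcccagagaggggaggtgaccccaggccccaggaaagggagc
PDHA1: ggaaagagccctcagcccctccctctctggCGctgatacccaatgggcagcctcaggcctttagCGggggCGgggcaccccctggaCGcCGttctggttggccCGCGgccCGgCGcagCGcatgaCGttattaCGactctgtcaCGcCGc
PDHA2: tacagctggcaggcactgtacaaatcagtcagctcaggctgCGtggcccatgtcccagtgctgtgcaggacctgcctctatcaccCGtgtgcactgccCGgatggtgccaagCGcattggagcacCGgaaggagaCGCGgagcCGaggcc
They lie at chrX:78104098-78104247 (plus strand), chr6:49787286-49787435 (minus), chrX:154397915-154398064 (plus), chr14:46651782-46651931 (minus), chr12:120437963-120438112 (plus), chr16:31428361-31428510 (minus), chrX:19343777-19343926 (plus) and chr4:95839943-95840092 (plus).

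The levels of these genes were far apart. PGK1 had 403, 388 and 373 TPM, RPL10 1266, 1231 and 1232 TPM, COX6A1 587, 595 and 622 TPM and PDHA1 157, 156 and 144 TPM. For the partners without counts, 3 counts would have been 0.139 TPM for PGK2, 0.283 TPM for RPL10L, 0.425 TPM for COX6A2 and 0.158 TPM for PDHA2. COX6A2 shares 46% of its bases with other genes and RPL10 55.5%. Reads on those bases could be dropped, so the limit for COX6A2 and the level of RPL10 are less certain. In the 300 bases around the start (250 before and 50 after it), PGK1 had 38 CpG and PGK2 had 6. COX6A1 had 22 against 5 for COX6A2, and PDHA1 had 31 against 17 for PDHA2. RPL10L went the other way, with 25 CpG against 22 for RPL10, so a CpG-dense start did not by itself mark the expressed member.

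Across all coding genes the same comparison was made with the RefSeq sequences of these 300 bases, which were matched for 14982 genes. A start was called CpG-rich when the observed number of CpG was over 0.6 of that expected from its C and G content and the GC content was over 50%. By this rule the starts of RPL10L (0.887 and 61.3%) and PDHA2 (0.69 and 57.3%), both without counts, were also CpG-rich. CpG-rich starts made up 64.6% of all matched genes, 84.1% of the 9526 expressed genes and 91.3% of the 1324 genes at 100 TPM or more. They made up 44.4% of the genes between the limits, 28.2% of those below 0.1 TPM with counts and 16.6% of the 1775 without counts. The share thus rose with the level of expression. Of the 2367 genes with under 5 CpG in the window, 14.3% were expressed and 41.8% had no counts. Of the 4629 genes with 30 CpG or more, 85.4% were expressed and 2.16% had no counts. Methylation itself was not measured.

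Short motifs were searched in the same windows on both strands as exact letters. TATAAA, the core of the TATA box, was in 9.56% of all starts, 5.03% of those of expressed genes and 25.8% of those without counts. GGGCGG, the GC box bound by SP factors, ran the other way, with 59.7% of all, 72.8% of expressed and 21.7% of genes without counts. CCAAT was in 36.6% of all, 37.5% of expressed and 39% of genes without counts, so these shares were close. GGGCGG holds a CpG, so its share is tied to the CpG content of the window. A match of letters is not a bound site.

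A pair of genes went against these shares, and their 150 bases before the start are shown in the same form. KRTAP19-1 encodes a hair protein, was expressed at 14.01, 11.2 and 12.5 TPM and has 1 CpG in its 300 bases, with TATAAA among them. LTBR, described above, had no counts and has 29 CpG.
KRTAP19-1: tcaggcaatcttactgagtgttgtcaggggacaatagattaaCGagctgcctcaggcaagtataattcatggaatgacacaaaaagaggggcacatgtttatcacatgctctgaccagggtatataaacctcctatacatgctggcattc
LTBR: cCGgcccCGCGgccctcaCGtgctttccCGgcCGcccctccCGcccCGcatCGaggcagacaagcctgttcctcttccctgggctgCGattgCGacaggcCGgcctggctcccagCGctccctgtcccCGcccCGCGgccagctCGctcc
They lie at chr21:30480368-30480517 (minus strand) and chr12:6384012-6384161 (plus strand) on GRCh38.p14. The pair was chosen after the values were seen.

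Among 8 gene families of the senses, the skin and the immune system, 589 of 705 genes (83.5%) had no counts, against 13.4% of all coding genes. They make up 22.5% of the 2622 coding genes without counts, so most silent genes lie outside them. None of 410 olfactory receptor genes was expressed and 371 of them had no counts, 9 of these being uncountable. The highest was OR1F1 at 0.801 ± 0.244 TPM, or 0.203 TPM with the longest transcript as length. The limit of 3 counts for these short genes had a median of about 0.235 TPM. Bitter taste receptors had 0 of 24 expressed and 8 without counts. Of 94 keratin-associated proteins, which harden hair, 81 had no counts, and KRTAP19-1 was the only 1 expressed. Of 55 keratins 33 had none. Of 29 LCE and SPRR genes of the skin barrier 28 had none, the exception being SPRR2F with 1.92, 1.93 and 1.58 TPM. Of 40 beta-defensins 36 had none (8 of them uncountable), and of 13 interferon alpha genes 12 had none. Of 40 chemokines 20 had none.

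Such families lie in tandem, and part of the silent genes lay in long blocks. Runs of at least 10 neighbouring coding genes all below 0.1 TPM in every library numbered 45 and held 809 genes, or 16.5% of the 4913 coding genes below 0.1 TPM. The longest ran from OR4B1 to APLNR (chr11:48216792-57237314) with 71 genes, 63 of them olfactory receptors, and had 3 counts in the 3 libraries together. The keratin block from KRTAP3-1 to KRT16 (chr17:41008521-41615899) held 47 genes, the epidermal block from TCHHL1 to SPRR2E (chr1:152084144-153106184) 39, and the olfactory block from OR2W3 to LYPD8 (chr1:247895587-248755739) 33 with no count at all. On chromosome 11 the block from OR51D1 to HBG2 (chr11:4639715-5645789) held 26 genes, among them 21 olfactory receptors and 4 globins. The keratin block from KRT80 to KRT78 (chr12:52168996-52849092) held 25 keratins, and the block from PCDHA1 to PCDHB1 (chr5:140786136-141059344) 16 genes, 15 of them alpha protocadherins.

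Runs of expressed genes were counted in the same way. Runs of at least 10 neighbouring expressed coding genes numbered 142 and held 1810 genes (15.4% of the expressed ones). The longest had 35 genes, from VRK2 to DNAAF10 (chr2:57907651-68157560). Because 59.7% of coding genes were expressed, against 13.4% without counts, runs of expressed genes arise more readily in any gene order. The 15.4% and the 16.5% are therefore not like measures, and an excess over a random order was not tested. Among chromosomes, the share of coding genes without counts was highest on chromosome 21 with 30.1%, and lowest on chromosome 22 with 6.51%. On chromosome 21, 42 of the 65 genes without counts were keratin-associated proteins, and 13.8% of the remaining genes had none. Chromosome 11 had 24.5% without counts and 13.8% once its olfactory receptors were left out, against 11.7% of all coding genes without olfactory receptors.

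Other loci that are commonly silenced were active in single members. Of 26 MAGE genes of the A, B and C groups, which are normally restricted to germ cells, 4 were expressed. MAGEA12 stood at 108, 104 and 102 TPM, and MAGEA3 and MAGEA6 at 12.5 ± 0.652 and 9.72 ± 0.0921 TPM, with MAGEB2 at 8.42 ± 0.713 TPM. The near-identical sequences of this family make the split between members uncertain. Of 32 GAGE, PAGE, XAGE and SSX genes none was expressed and 25 had no counts, 13 of these being uncountable. Of 10 globins the expressed members were HBQ1, which stood at 34.1, 42.6 and 38.5 TPM, and the uncertain HBA1. Protocadherins of the alpha and beta clusters had 0 of 15 and 0 of 16 expressed, and the gamma cluster had 2 of 22, whose members share their last exons.

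Of 27 imprinted genes, which are active from the copy of 1 parent, 10 were expressed and 9 had no counts. GNAS had 268 ± 17.4 TPM, PHLDA2 34.97 ± 4.96 TPM and PLAGL1 21.6 ± 0.0935 TPM. No counts were found for MEG3, MEG8, DLK1 and RTL1 of chromosome 14, for PEG3, ZIM2 and USP29 of chromosome 19, or for NDN and SNRPN of chromosome 15. The silent members thus fell on 3 chromosomes. SNRPN shares 39.2% of its bases with another gene. IGF2 had 3.5 ± 0.232 TPM and H19, its neighbour, 0.755 ± 0.06303 TPM. Of 56 cytochrome P450 genes 15 were expressed, with CYP51A1 of sterol synthesis at 38.7 ± 5.59 TPM (82.2% of its bases lie under an antisense gene) and CYP20A1 at 18.1 ± 0.602 TPM, which fell to 3.92 TPM with the longest transcript as length.

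Between the 3 libraries the levels were close. The spread was taken over 8551 coding genes with a mean of at least 5 TPM and at least 100 counts in every library. Genes whose exons overlap a gene of more counts were left out. The coefficient of variation (SD over mean) had a median of 6.70%, against 1.94% from counting alone. The highest library exceeded the lowest by a median factor of 1.14, by 1.5 or more in 85 genes and by 2 or more in none. The spread was not even among the libraries. Replicates 2 and 3 differed by a median of 0.06 on the log2 scale, and replicate 1 differed from them by 0.13 and 0.17. Of the 85 genes, replicate 1 was the highest in 61. Without replicate 1 the median coefficient of variation was 2.94%.

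The genes with the widest spread differed from the rest in base composition and length. EEA1, a tether of early endosomes, had the largest ratio of the 8551 genes, with 8.38, 6.61 and 4.74 TPM. The centromere motor CENPE and the spindle gene ASPM had 14.2, 12.5 and 8.35 TPM and 33.3, 26.9 and 21.1 TPM. Each of these genes was highest in replicate 1 and lowest in replicate 3. AMH, the anti-Müllerian hormone gene, ran the other way with 18.4, 27.2 and 31.9 TPM, and so did the kinesin gene KIFC2 with 4.62, 7.05 and 7.63 TPM. The 61 genes highest in replicate 1 had a median GC content of 38% and a median length of 8497 bases, and the 21 highest in replicate 3 had 65.3% and 2758 bases, against 47.7% and 5005 bases for all 8551. The part of GC content and length in the spread was not tested.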

How the data were processed

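Per the methods, the authors selected poly(A) RNA, made libraries with NEBNext Ultra II and sequenced read pairs on a NovaSeq X Plus. Reads were trimmed with Trimmomatic 0.36 and aligned to GRCh38 with STAR 2.5.2b, and unique gene hits were counted with featureCounts of Subread 1.5.2. The annotation release and strand setting were not given in the sources used here. The deposited values were raw read counts per gene, with gene lengths, for 57500 genes, of which 56410 were matched by ID to the annotation used. For the 3 DMSO libraries (45433394 to 62205366 counts), TPM were computed from counts and deposited lengths (Python 3.11.15, pandas 2.3.3). The 75 gene lists and 32 paralogue sets, and their members, were chosen with earlier results of these data known. The rule for named genes took the 5 highest members and up to 3 defining members of each list, the 20 highest genes and the 15 with the widest spread, 628 genes in all. Members named outside it, mainly those without counts, were chosen after the values were seen. Promoters came from RefSeq (GRCh38.p14), and 100-base words from the reference transcripts. The scripts were tested on simulated data, where 99.0% of 200 changed genes came back within 10%. The changed genes were drawn from those with at least 100 counts in every library. Overlaps, shared sequence and base composition were not simulated, so the test covers the arithmetic only. Alternatives used other thresholds, lengths and scalings (edgeR 4.0.16, DESeq2 1.42.0), thinned counts and left-out libraries. Some members of the lists are not reported here. The compound-treated libraries were left out because only the vehicle state was described.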

Additional observations from a re-analysis of the deposited data

How the results depend on the processing

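The number of expressed coding genes was 11718 and lay between 10085 and 12440 in every alternative run. The listed genes expressed, each counted once, numbered 1222 and ranged from 890 to 1352, and the paralogue sets with 1 member over 50% numbered 31 of 32 in every setting run. Pairs pass that mark whatever the values, so the number of sets could hardly move. Levels depended on scaling and length. The median level of the named genes was 6.27 TPM, against 1.83 under TMM-scaled RPKM, 1.83 under RPKM with DESeq2 size factors, 7.10 with mitochondrial genes left out of the total, 5.40 with the longest transcript as length and 8.33 with overlapped genes left out. RPKM and TPM are different units, and once brought to the same level, an alternative chosen after seeing the data, TMM scaling moved none of the 75 list counts by over 1.5 times. RPKM not brought to that level moved 28 of the 75, a limit of 0.5 TPM moved 13 and a limit of 2 TPM moved 9. By the longest transcript, 28 of 628 named genes were over 1.5 times higher and 46 over 1.5 times lower. Besides those given with both values, they include KRT8, B2M, RPL3, RPL8, RPL10, RPL26, PAX6, EIF2AK4 and TNNI3 (higher) and RIPK1, CYCS, SNAI2, JAK1, FZD7, ORAI1 and PPARG (lower). With each library left out, the median level ranged from 5.92 to 6.36 TPM, the median coefficient of variation from 2.94% (without replicate 1) to 8.33% (without replicate 2), against 6.70%. With stricter bounds for a CpG-rich start, the share was 66.5% among expressed genes and 8.85% among genes without counts, in place of 84.1% and 16.6%. No paired analysis was possible because only 1 group was used. Depth limits the genes without counts to the bounds given with them, and near-identical copies and overlapping genes limit others whatever the depth.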

Other observations

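Among genes outside the coding set, the processed pseudogene RPS2P5 had the highest level, 3515 ± 219 TPM, and shares sequence with its parent RPS2, so that its reads may belong to either. Processed pseudogenes as a class held 1.46 ± 0.0724% of TPM (SD, n = 3) with 507 of 10101 genes expressed. The long non-coding RNAs SNHG5 and SNHG29, hosts of small nucleolar RNAs, had 256 ± 27.96 and 208 ± 13.4 TPM. In this poly(A)-selected RNA they stood above MALAT1 (52.6 ± 10.9 TPM) and NEAT1 (7.07 ± 1.06 TPM), the long transcripts of nuclear speckles and paraspeckles. Poly(A) selection loses RNA without a poly(A) tail, so this order need not be that in the cells. With the longest transcript as length, SNHG5 had 91.98 TPM, below SNHG29 at 175 TPM, and MALAT1 had 32.7 TPM.

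The 8551 genes compared for spread were put into 5 equal groups by GC content. From the lowest to the highest, the median log2 ratio of replicate 1 over replicate 3 was 0.30, 0.21, 0.11, -0.01 and -0.15. The mitochondrial share of TPM was also lowest in replicate 1 and highest in replicate 3. Their part in the spread was not tested.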
